A study of Mus musculus with 8 samples.

Results

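Keratins and epithelial junction genes were followed in RNA-sequencing of mouse hearts. The 10 genes were taken from the expression table by name, after the Ensembl identifiers had been matched to mouse symbols: the basal keratins Krt5, Krt14 and Krt15 with Trp63, the luminal keratins Krt8, Krt18 and Krt19, and the junction genes Cdh1, Epcam and Cldn7. All 10 were found among the 25929 genes listed. The rule uses names only, but the genes were chosen with earlier results of these data known. All 10 were higher in both libraries of wild-type hearts under pressure overload than in any of the other 6 libraries. Of all genes tested, 40.3% showed this pattern too. Airway markers were also high in both of these libraries, with Scgb1a1 at 707 and 1555 FPKM, and thymus markers were high in the first of them. As sums of their levels, the basal keratins stood above WT-Sham and Fat1-TAC by a larger fold than the luminal keratins. The median of the fitted log2 fold changes was not larger in size for the basal keratins.

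Keratins build the intermediate filaments of epithelial cells, and a filament needs a type I partner (Krt14, Krt15, Krt18, Krt19) and a type II partner (Krt5, Krt8). Krt5 with Krt14 is the usual pair of the basal layer of stratified and glandular epithelia, whereas Krt8 with Krt18 is the usual pair of simple or luminal epithelia, often joined by Krt19. In the heart, working muscle cells carry desmin filaments instead, and the epithelial layer that covers the organ, the mesothelium of the epicardium, is a known source of luminal keratins.

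Hearts of wild-type mice (WT, strain C57BL/6) and of their fat-1 littermates were compared after transverse aortic constriction (TAC), a suture around the aorta that overloads the left ventricle, or after a sham operation with an open chest and no constriction. Fat-1 mice carry the fat-1 gene of Caenorhabditis elegans, a desaturase that turns n-6 into n-3 polyunsaturated fatty acids, and the promoter that drives it is not given in the sources used here. There were 2 libraries in each of 4 groups, WT-Sham (wild type, sham), WT-TAC (wild type, constricted), Fat1-Sham (fat-1, sham) and Fat1-TAC (fat-1, constricted), with each library called by its group and its number (WT-TAC1), and surgery was at 3 months of age. The labels call the 2 samples of a group independent and name ventricular tissue, whereas the methods name whole hearts.

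Levels are FPKM, the fragments of a gene scaled to its transcript length in kilobases and to the fragments of the whole library. The values turned into whole fragments at a single length for each gene, which gave between 14163994 and 21218331 fragments per library, so that 3 fragments, the detection floor used here, correspond to between 0.0396 FPKM (Trp63 in WT-Sham2) and 0.257 FPKM (Cldn7 in WT-Sham1). The 2 WT-TAC libraries differed from each other more than the replicates of the other groups did: 2560 genes were over 2-fold apart between them, against 275 to 362 within the other groups. The 6 cardiomyocyte markers summed to 22860 FPKM in WT-TAC1 and to between 41770 and 55590 FPKM in the other 7 libraries. In whole tissue, a lower level can come from fewer cells of a type, from less RNA per cell or from more RNA of other cells. The last holds because FPKM is relative to the whole library. These cannot be told apart here. Values are given for each library, and folds for WT-TAC1 and WT-TAC2 separately where the 2 differ.

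By the GENCODE M21 annotation of mouse build GRCm38, Krt5 lies on chromosome 15 from 101707070 to 101712898 and Krt8 on the same chromosome from 101996698 to 102004482, both on the minus strand, with Krt18 beside Krt8 on the plus strand from 102028180 to 102032027. The other type I genes lie together on the minus strand of chromosome 11, with Krt15 from 100131758 to 100135928, Krt19 from 100140810 to 100148665 and Krt14 from 100203162 to 100207548. Cldn7 lies on chromosome 11 from 69964779 to 69967885, Epcam on chromosome 17 from 87635979 to 87651129 and Trp63 on chromosome 16 from 25683763 to 25892102, all on the plus strand. Some reads of keratins can belong to near copies. Of the 50-base words in Krt8 transcripts, 26.9% also occur in its pseudogene Krt8-ps. For Krt14 the share was 13.9%, with Krt16 and Krt17, and for Krt5 it was 8.52%, with Krt6a first. In Krt15 and Krt18 the share was 0.640% and 0.721%, and the remaining 5 genes shared no such word with another gene. Levels of Krt5, Krt8 and Krt14 are therefore less certain than those of the junction genes, since how the counting treated shared reads is not given in the sources used here.

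The promoters of Krt5 and of the Krt8 with Krt18 pair are shown because these genes carry the basal and the luminal signal. Of the 10 genes, 6 had an entry in the RefSeq promoter table (build GRCm38.p6), which holds 250 bases before to 50 bases after each gene's start. Krt15, Krt19, Trp63 and Cdh1 had none, and the Krt14 window is not shown because it lies inside the GENCODE gene, at the start of a shorter transcript. Capitals mark TATAAA, searched on both strands, and GCCNNNGGC, which reads the same on both strands. The windows are chr15:101712856-101713155 for Krt5 and chr15:102004293-102004592 for Krt8, both minus strand, and chr15:102027966-102028265 for Krt18, plus strand.
Krt5: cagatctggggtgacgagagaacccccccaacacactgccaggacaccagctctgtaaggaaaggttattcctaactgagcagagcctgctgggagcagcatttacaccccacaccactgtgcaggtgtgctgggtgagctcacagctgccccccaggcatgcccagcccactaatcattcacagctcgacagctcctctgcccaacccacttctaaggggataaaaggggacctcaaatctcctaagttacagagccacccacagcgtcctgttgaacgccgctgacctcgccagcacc
Krt8: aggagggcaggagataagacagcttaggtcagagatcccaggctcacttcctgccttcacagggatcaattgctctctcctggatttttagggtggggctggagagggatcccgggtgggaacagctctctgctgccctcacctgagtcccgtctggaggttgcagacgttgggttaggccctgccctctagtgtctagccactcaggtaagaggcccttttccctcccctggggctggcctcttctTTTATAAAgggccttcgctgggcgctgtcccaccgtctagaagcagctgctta
Krt18: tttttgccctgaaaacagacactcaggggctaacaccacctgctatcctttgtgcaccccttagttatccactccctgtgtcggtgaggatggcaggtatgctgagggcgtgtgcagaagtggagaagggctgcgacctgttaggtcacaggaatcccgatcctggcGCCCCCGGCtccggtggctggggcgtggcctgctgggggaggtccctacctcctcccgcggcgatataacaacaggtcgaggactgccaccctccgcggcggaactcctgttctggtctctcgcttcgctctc
The Krt8 window held TATAAA on both strands, overlapping each other at bases 248 to 255, across the RefSeq start, which lies inside the GENCODE gene and so downstream of the GENCODE start. In the Krt18 window, GCCNNNGGC stood at bases 168 to 176. The Krt5 window held neither motif. Of 32851 promoters of this length, 13.6% held TATAAA and 16.6% held GCCNNNGGC, so these matches are a description of the letters only.

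Krt5, the type II keratin of basal cells, was at 47.3 FPKM (2052 fragments) in WT-TAC1 and 2.47 FPKM (97 fragments) in WT-TAC2. It was at 0 in both WT-Sham libraries, in Fat1-Sham2 and in both Fat1-TAC libraries, and at 0.0257 FPKM, 1 fragment, in Fat1-Sham1. So Krt5 mRNA was seen in both WT-TAC libraries and otherwise in a single fragment, and the WT-TAC libraries lay 19.2-fold apart. Against a floor of 3 fragments per library in WT-Sham, it was at least 489-fold higher in WT-TAC1 and at least 25.5-fold higher in WT-TAC2. Against the single fragment of the Fat1-Sham group, the fragments of the 2 WT-TAC libraries together gave a ratio of 2123 (3680-fold in FPKM for WT-TAC1 and 192-fold for WT-TAC2) with an exact 95% interval of 381 to 83900, which like all such intervals here covers counting error only, since PCR copies cannot be told apart from separate molecules without molecular identifiers.

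Krt14, the type I partner of Krt5, reached 19.4 FPKM in WT-TAC1 and 1.74 FPKM in WT-TAC2, with 0.200 and 0.936 FPKM in WT-Sham, 0.718 and 0.109 FPKM in Fat1-Sham and 0.569 and 0.430 FPKM in Fat1-TAC. Unlike Krt5, it had fragments in all 8 libraries, though in Fat1-Sham2 only 3, the floor, and WT-TAC2 stood only 1.86-fold above WT-Sham2, the highest of the other 6. WT-TAC1 had a ratio of Krt5 to Krt14 of 2.44 and WT-TAC2 one of 1.42, against 0 or 0.0358 elsewhere. Relative to the WT-Sham mean, Krt14 was 34.1-fold higher in WT-TAC1 and 3.06-fold higher in WT-TAC2.

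Krt15, a type I keratin of basal and progenitor cells of stratified and airway epithelia, showed the opposite order of the 2 WT-TAC libraries. It was at 6.46 FPKM (153 fragments) in WT-TAC1 and 17.2 FPKM (369 fragments) in WT-TAC2 and at 0 in all the other 6 libraries. No other gene of the 10 was at 0 in every library outside WT-TAC. With the WT-Sham floor of 0.177 FPKM, Krt15 was at least 36.4-fold higher in WT-TAC1 and at least 97.0-fold higher in WT-TAC2.

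Trp63 encodes p63, a transcription factor that basal cells of stratified epithelia need. Its level was 6.56 FPKM (464 fragments) in WT-TAC1 and 0.640 FPKM (41 fragments) in WT-TAC2, against 0.178 and 0.304 FPKM in WT-Sham, 0.142 and 0.229 FPKM in Fat1-Sham and 0.150 and 0.108 FPKM in Fat1-TAC. It followed Krt5 and Krt14 in being mostly a signal of WT-TAC1, where it was 27.2-fold above the WT-Sham mean, as against 2.66-fold in WT-TAC2. Because it reached 1 FPKM in a single library, it was not among the genes tested.

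**Figure D1:**
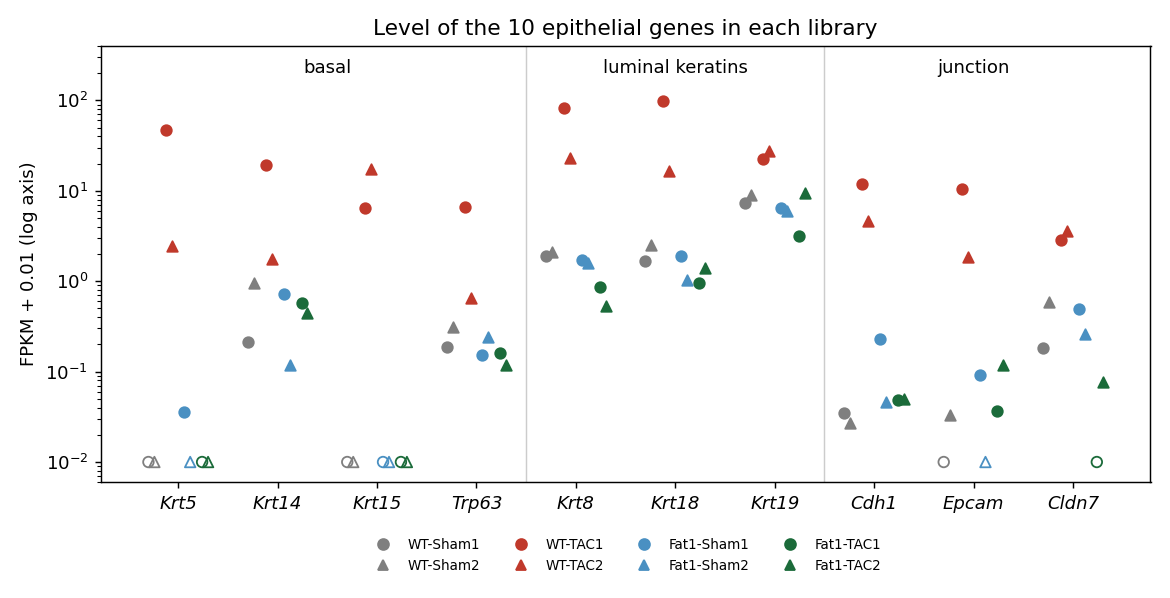
Level of each of the 10 genes in each of the 8 libraries as FPKM + 0.01 on a log axis, with circles for replicate 1, triangles for replicate 2 and open symbols for a level of 0. For every gene both red WT-TAC symbols lie above the other 6, a pattern that 40.3% of the genes tested showed. The gap between the red symbols is widest for Krt5 (47.3 and 2.47 FPKM) and turned over for Krt15 (6.46 and 17.2 FPKM).

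Among the luminal keratins, Krt8, the type II member, was at 82.6 FPKM in WT-TAC1 and 23.0 FPKM in WT-TAC2. The other libraries held 1.88 and 2.12 FPKM in WT-Sham, 1.71 and 1.59 FPKM in Fat1-Sham and 0.860 and 0.519 FPKM in Fat1-TAC. Fat1-TAC held 46 fragments and Fat1-Sham 111, a ratio of Fat1-Sham to Fat1-TAC of 2.38 (exact 95% interval 1.67 to 3.43). That interval covers counting error only. limma, a test on all 8 libraries described below, did not call this difference (log2 fold change -0.66 ± 0.52 (SE), unadjusted p 0.246).

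Krt18, the type I partner of Krt8, was at 97.6 FPKM in WT-TAC1, the highest level of any of the 10 genes in any library, and at 16.5 FPKM in WT-TAC2. Its other values were 1.66 and 2.53 FPKM in WT-Sham, 1.89 and 1.02 FPKM in Fat1-Sham and 0.956 and 1.38 FPKM in Fat1-TAC, which overlap between the groups. Krt8 and Krt18 stayed close to each other in most libraries, with a ratio of Krt8 to Krt18 between 0.838 and 1.55 in 7 libraries and 0.377 in Fat1-TAC2.

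Krt19, a type I keratin without a fixed partner, was the keratin with the highest level outside WT-TAC. It was at 7.33 and 8.93 FPKM in WT-Sham, 6.47 and 5.94 FPKM in Fat1-Sham, 3.16 and 9.43 FPKM in Fat1-TAC, and 22.5 and 27.8 FPKM in WT-TAC. Here WT-TAC2 was the higher library and the replicates lay only 1.24-fold apart. Its fold over the WT-Sham mean came to 2.77 in WT-TAC1 and to 3.42 in WT-TAC2, the lowest of the luminal keratins in both libraries, where Krt8 stood at 41.4 and 11.5 and Krt18 at 46.6 and 7.86.

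Of the junction genes, Cdh1 encodes E-cadherin, the adhesion protein of epithelial adherens junctions. Its level was 11.9 FPKM (664 fragments) in WT-TAC1 and 4.58 FPKM (231 fragments) in WT-TAC2. Elsewhere it was at 1 fragment in each WT-Sham library, 11 and 2 fragments in Fat1-Sham and 2 in each Fat1-TAC library, or 0.0168 to 0.220 FPKM. All libraries outside WT-TAC except Fat1-Sham1 thus held Cdh1 at or under the floor. The ratio of WT-TAC to WT-Sham fragments was 419, with an exact 95% interval of 116 to 3465, and the fold over the WT-Sham mean was 569 in WT-TAC1 against 218.5 in WT-TAC2.

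Epcam, an adhesion protein at the surface of most simple epithelia, was at 10.6 FPKM (428 fragments) in WT-TAC1 and 1.83 FPKM (67 fragments) in WT-TAC2. The other libraries held between 0 and 4 fragments, at most 0.108 FPKM. Its level in WT-TAC1 was 5.79-fold above that in WT-TAC2. The ratio to the single WT-Sham fragment was 464, with an exact 95% interval of 82.8 to 18340, and the fold was 916 in WT-TAC1 against 158 in WT-TAC2.

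Cldn7, a claudin of epithelial tight junctions, was at 2.88 FPKM (47 fragments) in WT-TAC1 and 3.58 FPKM (53 fragments) in WT-TAC2. It was at 0.171 and 0.572 FPKM in WT-Sham, 0.478 and 0.248 FPKM in Fat1-Sham and 0 and 0.0669 FPKM in Fat1-TAC. With Krt15 and Krt19 it was one of the 3 genes higher in WT-TAC2 than in WT-TAC1. Its level over WT-Sham was 7.74-fold in WT-TAC1 and 9.64-fold in WT-TAC2.

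The comparison of WT-TAC with WT-Sham asks what pressure overload changed in wild-type hearts. It was tested with limma on log2(FPKM + 1) in the 14442 genes for which 2 or more libraries reached 1 FPKM, and a gene counted as called if its fold exceeded 1.5 and its p, adjusted by Benjamini-Hochberg, lay under 0.1. Of the 10 genes, 9 were tested, and 6 of these passed the filter only through the WT-TAC libraries, so that they had to differ. Krt15, Krt8, Cdh1 and Cldn7 rose, 4 of 9, where 0.921% of all genes tested were called up. Of these 4, Krt15, Cdh1 and Cldn7 passed the filter only through the WT-TAC libraries, so the count is given as a description. On this scale, which understates the change of low genes, the log2 fold changes were 3.54 ± 0.39 (SE) for Krt15, 3.90 ± 0.52 for Krt8, 3.06 ± 0.38 for Cdh1 and 1.63 ± 0.25 for Cldn7. Their adjusted p in limma were 0.0261 for Krt15, 0.0395 for Krt8, 0.0334 for Cdh1 and 0.0595 for Cldn7.

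Krt5 had a log2 fold change of 3.69 but an SE of 1.02, and with an adjusted p of 0.175 in limma it did not pass, nor did Krt14 (2.29 ± 0.83, adjusted p 0.176), whose WT-TAC libraries lay 11.1-fold apart. Krt18 missed the threshold at an adjusted p of 0.102, Epcam at 0.159 and Krt19 at 0.175, the latter with the closest WT-TAC libraries and the smallest log2 fold change, 1.52 ± 0.40 (SE). All 9 were higher in WT-TAC, and all 9 had an unadjusted p under 0.05 in limma with a fold over 1.5. Every count at an unadjusted p given here also requires that fold. The median log2 fold change was 3.06 against 0.39 over all genes tested. Krt5, Krt14, Krt15, Cdh1, Epcam and Cldn7 passed the filter only through the WT-TAC libraries and so had to be higher. The counts and the median are therefore a description. Of all 14442 genes, 11450 were higher in WT-TAC as well and 3275 were so at an unadjusted p under 0.05. Both WT-TAC libraries were above the other 6 for all 10 genes, a pattern that 40.3% of the genes tested showed.

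The limits of this comparison lie in its 2 libraries a group, with which the smallest two-sided p of an exact permutation test is 0.33. Leaving out a library leaves 1 library in a group, and calls then shifted for all genes as well as for these 9. Across all settings tried, the log2 fold change lay between 3.00 and 4.80 for Krt8 and between 1.04 and 2.1 for Krt19. With limma-voom on the recovered fragments 0 were called, where only 6 of all 14442 genes were called up. Scaling by the median of ratios moved the median of all genes to -0.02 and left log2 fold changes between 1.07 for Krt19 and 3.47 for Krt8.

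Between Fat1-TAC and WT-TAC, which asks how the transgene altered the overloaded heart, Krt15, Krt8, Krt18, Cdh1 and Cldn7 were lower in Fat1-TAC and called, 5 of 9, where 1.39% of all genes tested were called down. Of these 5, Krt15, Cdh1 and Cldn7 passed the filter only through the WT-TAC libraries and so had to differ, and the count is given as a description. This comparison shares the WT-TAC libraries with the one before, so its signs are not a separate observation, and 11266 of all 14442 genes were lower in Fat1-TAC. The log2 fold changes were -4.74 ± 0.52 (SE) for Krt8, -4.27 ± 0.71 for Krt18, -3.54 ± 0.39 for Krt15, -3.03 ± 0.38 for Cdh1 and -2.03 ± 0.25 for Cldn7. The adjusted p of limma ranged from 0.0228 for Krt8 to 0.0716 for Krt18. Krt5, Krt14, Krt19 and Epcam were lower in both Fat1-TAC libraries than in both WT-TAC libraries but did not pass, at adjusted p of 0.152, 0.163, 0.102 and 0.131 in limma.

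Side by side, the level in WT-TAC over that in Fat1-TAC was at least 329-fold for Krt5 and at least 85.5-fold for Krt15 from the group means and the higher per-library floor, 76.5-fold for Krt8, 48.9-fold for Krt18 and 4.0-fold for Krt19. Against WT-Sham the same genes gave at least 257-fold, at least 66.7-fold, 26.4-fold, 27.2-fold and 3.10-fold. The libraries differed in these folds: against Fat1-TAC, Krt5 was at least 626-fold higher in WT-TAC1 and at least 32.7-fold in WT-TAC2, Krt15 at least 46.7-fold and at least 124-fold, Krt8 119.7-fold and 33.3-fold and Krt18 83.6-fold and 14.1-fold. Krt8 had the larger fold against Fat1-TAC, where its level was below that of WT-Sham. For Cldn7, 1 fragment in Fat1-TAC stood against 100 in WT-TAC, a ratio of 97.5 with an exact 95% interval of 17.1 to 3888. Here too, calls shifted for all genes as well as for these 9 when a library was left out. Across all settings tried, the log2 fold change lay between -6.0 and -3.8 for Krt8 and between -2.6 and -1.3 for Krt19. In a fit of the WT-TAC and Fat1-TAC libraries alone, 0 of 9 were called, where 40 of all genes were called down.

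**Figure D2:**
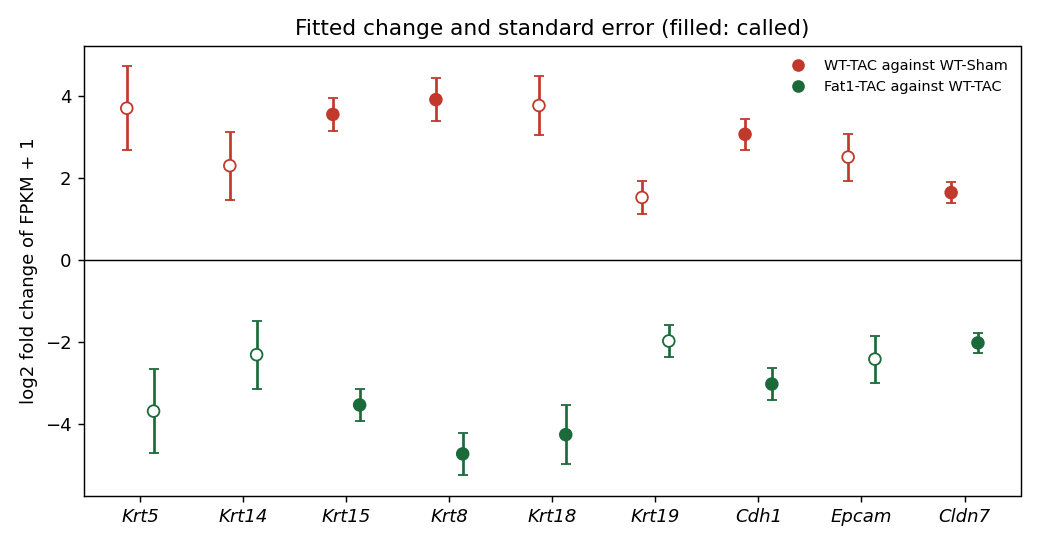
Log2 fold change of FPKM + 1 with its standard error from limma for the 9 genes tested, for WT-TAC against WT-Sham in red and Fat1-TAC against WT-TAC in green, with filled points for called genes. All red points lie above 0 and all green points below it, the WT-TAC libraries serve in both comparisons, and the widest bars are those of Krt5 (SE 1.02). Of the 9 genes, only Krt8, Krt18 and Krt19 passed the filter without the WT-TAC libraries.

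Sham-operated fat-1 and wild-type hearts did not differ detectably in these genes. Krt5, Krt14, Krt15, Cdh1, Epcam and Cldn7 passed the filter only through WT-TAC and lay under 1 FPKM in every sham library. The absence of a call therefore says little about them. In limma, 0 of 9 were called, 0 of 9 had an unadjusted p under 0.05, 0 were called with limma-voom, and 0% of all genes tested were called. The log2 fold changes lay between -0.34 for Krt18 and 0.14 for Cdh1. For Cdh1 the 2 Fat1-Sham libraries held 13 fragments and the 2 WT-Sham libraries 2, a ratio of 6.16 with an exact 95% interval of 1.40 to 56.2, and 11 of the 13 were in Fat1-Sham1. Outside WT-TAC, Fat1-Sham1 held the airway marker Scgb1a1 at 33.1 FPKM, where the other 5 libraries held at most 0.450 FPKM. The part of airway cells in the Cdh1 level was not tested.

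In fat-1 mice, TAC changed none of the 9 tested genes past the threshold. limma called 0 of 9, 0 had an unadjusted p under 0.05, limma-voom called 0, and 0.00692% of all genes tested were called. Krt5, Krt14, Krt15, Cdh1, Epcam and Cldn7 passed the filter only through WT-TAC and lay under 1 FPKM in every fat-1 library. The count of 0 therefore says little about them. Krt8 had the largest difference, -0.66 ± 0.52 (SE) on the log2 scale with an adjusted p of 1, and Cldn7 the next at -0.40 ± 0.25. The interaction of genotype and surgery, which tests whether TAC acted differently in the 2 genotypes, was negative for all 9 and for 11172 of all 14442 genes. In limma, 0 of 9 were called and 8 of 9 had an unadjusted p under 0.05 (921 of all genes). limma-voom called 0, and limma called 0.0623% of all genes tested negative. The genes that passed the filter only through the WT-TAC libraries had to be negative here, so these counts are a description. The lowest adjusted p in limma was 0.203, for Krt15, followed by 0.219 for Krt8. Without WT-TAC1 the interaction was called for 5 of 9 and without WT-TAC2 for 8 of 9 of the same genes, where 68 and 5795 of all 14442 genes were called.

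Basal and luminal keratins were then compared as sums of FPKM, with no test since each group has 2 libraries. The basal sum (Krt5, Krt14 and Krt15) was 73.1 FPKM in WT-TAC1 and 21.4 FPKM in WT-TAC2, against 0.109 to 0.936 FPKM in the other 6 libraries. For the luminal sum (Krt8, Krt18 and Krt19) the values were 203 and 67.3 FPKM, against 4.98 to 13.6 FPKM. Luminal keratins were therefore the larger part in every library. As sums, the basal ones differed more. The mean basal sum of WT-TAC was 83.1-fold that of WT-Sham and 94.5-fold that of Fat1-TAC, whereas the luminal sum was 11.0-fold and 16.6-fold. Gene by gene the order was mixed. The WT-TAC mean over WT-Sham was 18.6-fold for Krt14, 26.4-fold for Krt8, 27.2-fold for Krt18 and 3.10-fold for Krt19. Krt5 and Krt15, at 0 in WT-Sham, were at least 257-fold and at least 66.7-fold higher. Krt19, with the lowest fold, made up 67.4% and 65.8% of the luminal sum in WT-Sham. The median log2 fold change in limma, on a scale that understates low genes, was not larger for the basal keratins. In WT-TAC against WT-Sham it was 3.54 for the basal and 3.76 for the luminal keratins. For Fat1-TAC against WT-TAC the medians were -3.54 and -4.27. Over WT-Sham, WT-TAC1 had a basal fold of 129 and a luminal fold of 16.6, WT-TAC2 had 37.7 and 5.51, and the WT-Sham basal sum was Krt14 alone, 32 fragments in both libraries together. The sum of the junction genes (Cdh1, Epcam and Cldn7) was 43.8-fold that of WT-Sham and 127-fold that of Fat1-TAC. In Fat1-TAC each of them held 0 to 4 fragments per library, near or under the floor. In WT-Sham each held 0 to 2, apart from 10 of Cldn7 in WT-Sham2. These folds therefore cannot rank the junction genes against the keratins.

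The basal share of the 6 keratins came to 26.5% in WT-TAC1 and to 24.1% in WT-TAC2 (25.3% ± 1.68, SD, n = 2). It was 1.81% and 6.45% in WT-Sham, 6.88% and 1.26% in Fat1-Sham and 10.3% and 3.66% in Fat1-TAC. No library outside WT-TAC reached the lower WT-TAC value. The near equality of the 2 WT-TAC shares hid a different makeup, since Krt5 made up 64.7% and Krt15 8.84% of the basal sum in WT-TAC1, whereas Krt15 made up 80.4% and Krt5 11.5% in WT-TAC2. Without Krt15 the share came to 24.7% in WT-TAC1 and to 5.88% in WT-TAC2, the latter within the range of the other libraries.

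Luminal keratins changed in makeup as well. Krt19 took between 63.5% and 83.3% of the luminal sum in the 6 libraries outside WT-TAC, 41.4% in WT-TAC2 and 11.1% in WT-TAC1. Type II keratins (Krt5 and Krt8) made up 47.1% of the 6 keratins in WT-TAC1, 28.7% in WT-TAC2 and 4.42% to 18.3% elsewhere. Libraries outside WT-TAC thus held mainly Krt19, a type I keratin, in excess of any type II partner among these genes, and WT-TAC1 came close to even amounts of the 2 types. Levels between genes depend on the length used for FPKM: with each gene's longest annotated transcript in place of that length, the basal share came to 26.8% in WT-TAC1 and to 22.7% in WT-TAC2.

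**Figure D3:**
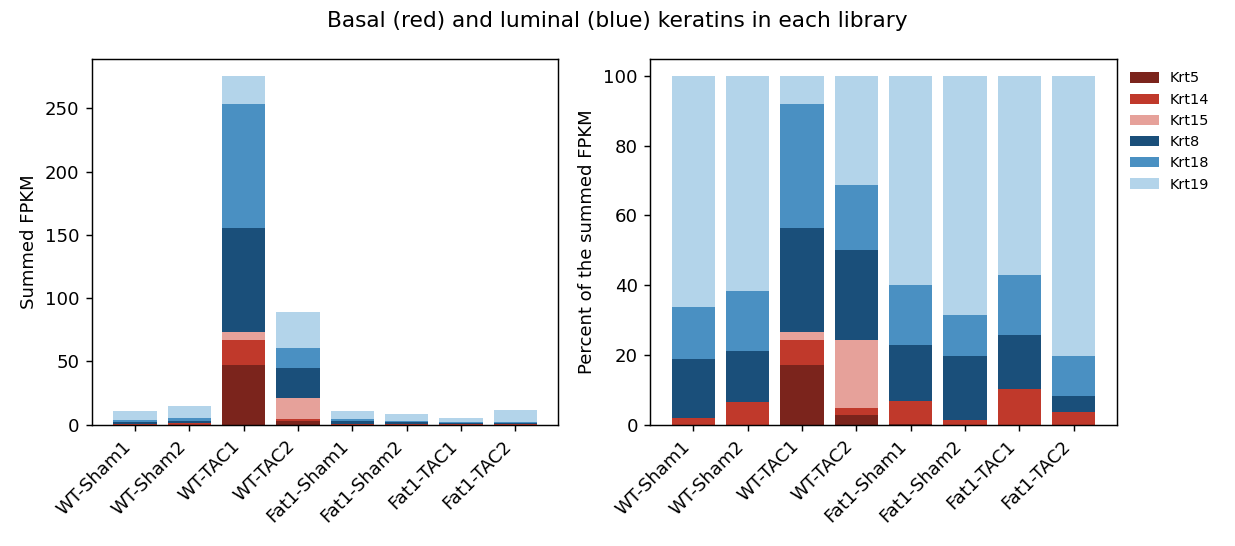
Stacked bars of the 3 basal keratins (red) and the 3 luminal keratins (blue) in each library, as FPKM on the left and as percent of the summed FPKM on the right. The WT-TAC bars are the tallest and have the widest red part (26.5% and 24.1%), mostly Krt5 in WT-TAC1 and mostly Krt15 in WT-TAC2, while Krt19 fills most of the bars of the other libraries.

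The 2 WT-TAC libraries differed in which epithelial genes they held. Of the 10 genes, 7 were higher in WT-TAC1, by 19.2-fold for Krt5, 11.1-fold for Krt14, 10.3-fold for Trp63, 5.93-fold for Krt18, 5.79-fold for Epcam, 3.59-fold for Krt8 and 2.60-fold for Cdh1. The remaining 3 were higher in WT-TAC2, by 2.66-fold for Krt15, 1.25-fold for Cldn7 and 1.24-fold for Krt19. Among the 10 genes, the excess of WT-TAC1 was thus widest for the Krt5, Krt14 and p63 set of stratified basal cells. Keratins outside the 10 genes split in the same way: Krt17, a type I keratin of basal and appendage epithelium, was at 34.1 FPKM in WT-TAC1 and 0.646 FPKM in WT-TAC2, whereas Krt23 was at 0.677 and 1.99 FPKM.

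**Figure D4:**
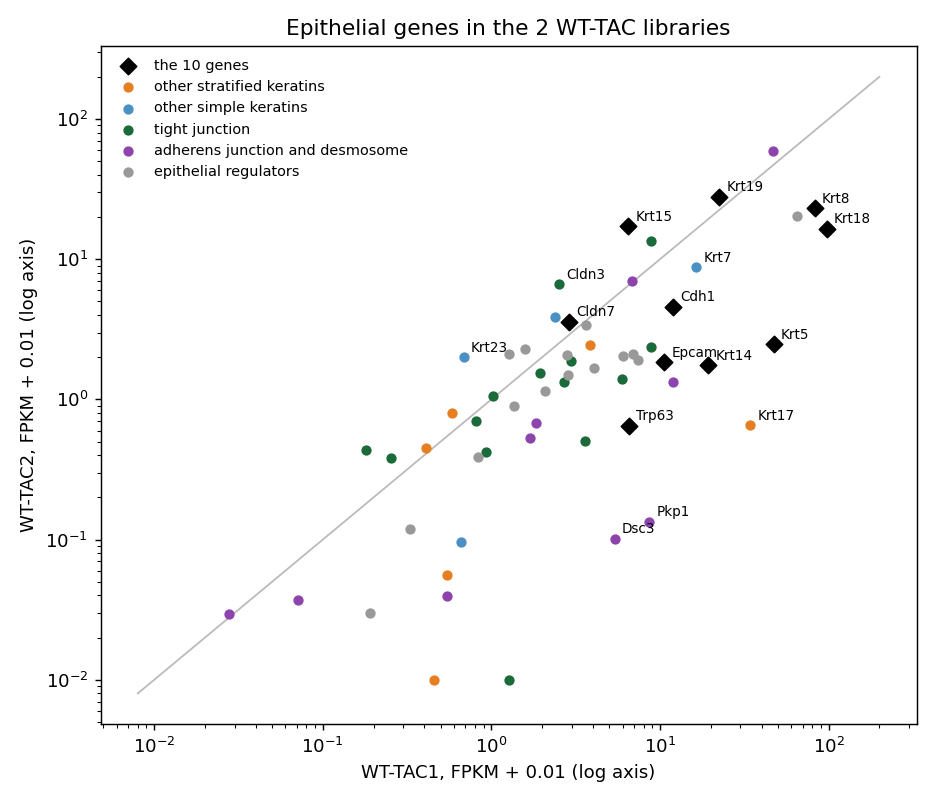
Level in WT-TAC2 against level in WT-TAC1, both as FPKM + 0.01 on log axes, for the 10 genes (black diamonds) and 5 lists of other epithelial genes (circles), with a line of equal levels. Krt5, Krt14, Trp63 and Krt17 lie far to the right of the line, Krt15 and Cldn3 above it, and Krt19 and Cldn7 near it.

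Other genes of the same structures were read from lists. Of the 6 other stratified keratins found, only Krt10 passed the filter and it was not called in either WT-TAC comparison by limma or limma-voom (unadjusted p under 0.05 in 0 of 1 against WT-Sham and 1 of 1 against Fat1-TAC), while Krt17 was above 1 FPKM in WT-TAC1 alone and Krt79 and Krt4 in no library. Both tested genes among the 4 other simple keratins were higher in WT-TAC, and Krt7, a type II partner of Krt19 in simple epithelium, was at 16.4 and 8.73 FPKM in WT-TAC against 0.706 to 3.97 FPKM elsewhere. Krt7 fell by 2.86 ± 0.47 (SE) on the log2 scale in Fat1-TAC against WT-TAC (limma adjusted p 0.0688) and had a log2 fold change of 2.0 ± 0.47 (SE) in WT-TAC against WT-Sham, at an adjusted p of 0.159 in limma, and limma-voom called neither.

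Of the 14 epithelial tight junction genes found, 8 were tested, and 7 were higher in WT-TAC than WT-Sham (11450 of 14442 over all genes, to be read beside each such count), with 1 called in limma and 0 in limma-voom, Cldn3 (log2 fold change 2.09 ± 0.37 (SE), limma adjusted p 0.0861). Cldn3, a sealing claudin, was at 2.52 and 6.63 FPKM in WT-TAC and 0.162 to 0.569 FPKM elsewhere, higher in WT-TAC2 as Cldn7 was. Tjp3, a scaffold of tight junctions, was at 8.83 and 2.35 FPKM against 0.0743 to 0.449 FPKM. Cldn12 was at 8.89 to 13.5 FPKM in all libraries. Against Fat1-TAC, 7 of the 8 were higher in WT-TAC and 1, Cgn, was called in limma, against 2 in limma-voom. Cgn was named after its values were seen. Cldn3 and Cgn passed the filter only through the WT-TAC libraries and so had to differ.

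Among the 10 genes of epithelial adherens junctions and desmosomes, 3 were tested and 0 called in limma in both comparisons, with 2 of 3 at an unadjusted p under 0.05 in each and 0 called with limma-voom. Pkp1 and Pkp3, plaque proteins of desmosomes, were at 8.61 and 11.9 FPKM in WT-TAC1 and at 0.124 and 1.33 FPKM in WT-TAC2. Perp was at 46.5 to 65.7 FPKM in all libraries. The 7 desmosome and junction genes that heart muscle shares with epithelium were tested and 0 were called by limma or limma-voom in either comparison (unadjusted p under 0.05 in 0 and 1 of 7), with a median log2 fold change of -0.18 in WT-TAC against WT-Sham, opposite in sign to the epithelial lists. Dsp, desmoplakin, was at 109 FPKM in WT-TAC1 and 164 to 220 FPKM in the other 7 libraries.

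Of 8 genes of hemidesmosomes and epithelial laminins, which fasten basal cells to their basement membrane, 6 were tested and 0 were called by limma or limma-voom in either comparison (unadjusted p under 0.05 in 1 of 6 in each). All 6 were higher in WT-TAC than WT-Sham, with a median log2 fold change of 0.45 against 0.39 over all genes. Lamb3, the beta chain of the laminin under basal epithelial cells, was at 19.6 FPKM in WT-TAC1, 12.8 FPKM in WT-TAC2 and 8.15 to 12.9 FPKM elsewhere. Of 15 epithelial regulators found, 11 were tested and all were higher in WT-TAC than WT-Sham and higher than in Fat1-TAC. In the first comparison 4 were called, among them Esrp1, Elf3 and Ehf, and in the second 6 (the same 4 with Klf5 and Spint1), these 5 named after their values were seen. limma-voom called 1 and 5. Ehf, an ETS factor of epithelia, was at 3.61 and 3.37 FPKM in WT-TAC and at most 0.139 FPKM elsewhere. Its log2 fold change was 2.17 ± 0.20 (SE) against WT-Sham, with an adjusted p of 0.0155 in limma. All 6 regulators that limma called passed the filter only through the WT-TAC libraries and so had to differ. The 8 factors of epithelial to mesenchymal transition included 7 tested and 0 called by limma or limma-voom in either comparison (unadjusted p under 0.05 in 0 of 7 against WT-Sham and 3 of 7 against Fat1-TAC), and Zeb1 was at 59.2 FPKM in WT-TAC1 and 29.2 to 37.0 FPKM in the others.

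Markers of other tissues moved with the 10 genes and are given as measured values. All 5 club cell genes, secretory markers of airway epithelium, were found and called by limma in both WT-TAC comparisons, and they summed to 1471 FPKM in WT-TAC1 and 3931 FPKM in WT-TAC2, 1.03 and 0.750 FPKM in WT-Sham, 48.8 and 0.193 FPKM in Fat1-Sham and 0.636 and 0.670 FPKM in Fat1-TAC. Scgb1a1 was at 707 and 1555 FPKM in WT-TAC, and Scgb3a2 was at 0 in WT-Sham, Fat1-TAC and Fat1-Sham2. WT-TAC2 was the higher library, as it was for Krt15, Krt19 and Cldn7. The 4 of 6 gland markers found summed to 117 and 276 FPKM in WT-TAC and 2.64 to 5.51 FPKM elsewhere, with 2 of 4 called in each comparison (Ltf and Wfdc2). Ciliated cell markers, 5 of 5 found, summed to 11.0 and 14.3 FPKM in WT-TAC and 1.14 to 2.11 FPKM elsewhere, with 2 of 3 tested called in each comparison. Of club cell, gland and ciliated cell markers limma-voom called 0 against WT-Sham, and 1, 3 and 1 against Fat1-TAC. The 5 club cell genes, Ltf and the ciliated cell markers that limma called passed the filter only through the WT-TAC libraries. They therefore had to differ.

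Thymus markers were highest in WT-TAC1. The 6 of 7 thymocyte markers found summed to 919 FPKM in WT-TAC1, 22.6 FPKM in WT-TAC2, of which Cd1d1 was 22.2 FPKM, and 2.40 to 8.09 FPKM elsewhere. Rag1, the recombinase of developing lymphocytes, was at 252 FPKM in WT-TAC1, 0.0590 FPKM in WT-TAC2 and 0 in the other 6 libraries. The 4 of 6 thymic epithelium markers found summed to 394 FPKM in WT-TAC1, 7.12 FPKM in WT-TAC2 and 4.16 to 5.66 FPKM elsewhere, with Prss16 at 228 and 0.0708 FPKM and Aire at 7.90 and 0.163 FPKM in the 2 WT-TAC libraries. Of these markers 3 passed the filter and 0 were called by limma or limma-voom. Foxn1 and Psmb11 were not analysed here. Krt5, Krt14, Trp63 and Krt17 thus were highest in the library with the thymus markers, and Krt15 in the one with the most airway and gland mRNA. The part of either tissue in these levels was not tested.

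Mesothelium markers, the epithelium that belongs to the heart, were present in all libraries. All 6 were found and tested, and they summed to 58.4 and 67.5 FPKM in WT-TAC, 34.3 and 46.7 FPKM in WT-Sham, 35.9 and 28.5 FPKM in Fat1-Sham and 20.2 and 37.5 FPKM in Fat1-TAC. In limma, 0 of 6 were called against WT-Sham, where 1 of 6 had an unadjusted p under 0.05 and limma-voom called 0, and Msln, 1 of 6, was called lower in Fat1-TAC than in WT-TAC by limma but not by limma-voom. Outside WT-TAC, Fat1-TAC1 was lowest for the mesothelium sum as it was for Krt19 (3.16 FPKM). The mesothelium sum of WT-TAC was 1.56-fold that of WT-Sham and 2.18-fold that of Fat1-TAC, and the luminal keratin sum was 11.0-fold and 16.6-fold. Within that sum, Krt19 was at 3.10-fold and 4.0-fold, Krt8 at 26.4-fold and 76.5-fold and Krt18 at 27.2-fold and 48.9-fold. The part of mesothelium in the luminal keratin levels was not tested.

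Alveolar markers, 6 of 6 found, summed to 165 and 124 FPKM in WT-TAC and to 89.6 to 143 FPKM elsewhere, of which Hopx, also a heart gene, was 69.1 to 119 FPKM. Sftpc was at 74.7 FPKM in WT-TAC1, 0.139 FPKM in WT-TAC2 and 29.9 FPKM in Fat1-Sham1. Of 5 tested alveolar markers 1 was called in each WT-TAC comparison by limma, and 0 and 1 by limma-voom. The marker that limma called, Aqp5, passed the filter only through the WT-TAC libraries and so had to differ. Squamous markers, 6 of 7 found, summed to 12.5 and 3.69 FPKM in WT-TAC and 1.64 to 2.76 FPKM elsewhere, with 0 of 1 tested called by limma or limma-voom and 1 of 1 at an unadjusted p under 0.05 in each comparison. Of the 6 cardiomyocyte markers 0 were called by limma or limma-voom in either comparison, with 0 at an unadjusted p under 0.05 against WT-Sham and 2 against Fat1-TAC.

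**Figure D5:**
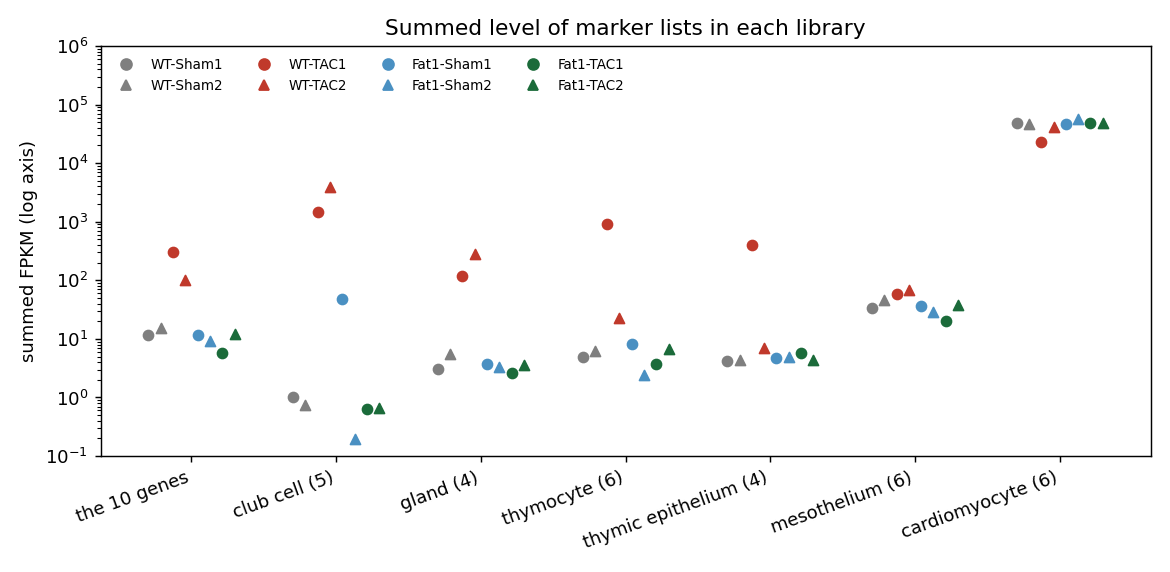
Summed FPKM, on a log axis, of the 10 genes and of 6 marker lists in each library, with the number of genes found in brackets, circles for replicate 1 and triangles for replicate 2. The red WT-TAC symbols are high for club cell (1471 and 3931 FPKM) and gland markers in both libraries, and for thymocyte and thymic epithelium markers in WT-TAC1 (919 and 394 FPKM), while mesothelium and cardiomyocyte markers are present in all libraries.

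Genes whose levels across the 8 libraries were most like the mean of the basal or luminal keratins, by Pearson's r of log2(FPKM + 1) over all genes tested, were listed as a description. Since the libraries fall into WT-TAC and the rest, r mainly reflects that split. For the basal mean the leading genes were Spint1 (r = 0.998), a protease inhibitor of epithelia, Ighv1-11, Coro2a, Dnajb13 and Ccdc162 (r = 0.995). For the luminal mean they included Prx (r = 0.999), Cgn, a tight junction protein, Ccdc162 and Scnn1a, the alpha subunit of the epithelial sodium channel. Spint1 was at 6.90 and 2.11 FPKM in WT-TAC and at most 0.0925 FPKM elsewhere. Scnn1a was at 7.51 and 3.66 FPKM in WT-TAC and 0.144 to 0.531 FPKM elsewhere.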

How the data were processed

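Each heart gave 1 library, prepared with an NEBNext Ultra kit and sequenced on an Illumina HiSeq. The submitters' processing notes name HISAT2 and the builds GRCm38 and mm10. The version, the counting program and the annotation are not given in the sources used here. The deposited table gives FPKM, as computed by the authors, in 8 libraries for 25929 genes, of which 25852 carried a symbol after matching to GENCODE M21, and 4 blank lines were removed. The study chose its differentially expressed genes at an adjusted p under 0.1 and a fold over 1.5, and these cutoffs were kept.

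Fragments were recovered from the FPKM values as whole multiples at a single length per gene (tolerance 0.05 fragments). This held for 100.0% of genes, at the mean length of the annotated transcripts for 86.5%, and in simulated data the length was recovered for 95.5% of 1495 genes and for 100.0% of those with at least 20 fragments. Recovered fragments served for the floor of 3 fragments, for exact 95% intervals of ratios (conditional binomial) and for limma-voom. All else used FPKM. A mean transcript length can misstate the level of one gene against another, but not of one library against another.

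limma (version 3.58.1, R 4.3.3) was run on log2(FPKM + 1), with lmFit and eBayes with a trend over 4 group means and all 8 libraries, and p was adjusted by Benjamini-Hochberg over all 14442 genes tested. With 4-fold changes simulated in WT-TAC against WT-Sham, it called 189 of 197 changed genes and 31 unchanged ones among 14520. Every group was simulated with the same spread. The real WT-TAC libraries lay further apart, with 2560 genes over 2-fold apart against 275 to 362 within the other groups. The simulated rate therefore says little about the comparisons with WT-TAC. SE is that of limma, and SD is over the 2 libraries.

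The members, the gene lists and the markers were chosen with earlier results of these data known. Genes named are the 10 members, the 4 genes with the highest mean FPKM of each list, all markers, and the 5 genes most like the basal and the luminal mean. Genes of the lists that the table did not yield under their symbol were not analysed here, and some genes are not reported here. Alternatives were other scalings, filters, pseudocount, tests and groups in the fit, the replicate number as a block, and each library left out. The fits scaled to cardiomyocyte markers, those without a WT-TAC library on unchanged genes and the basal share by longest transcript were added after seeing the data.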

Additional observations from a re-analysis of the deposited data

How the results depend on the processing

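Against 4 called in WT-TAC over WT-Sham, 2 were called with median of ratios scaling, 1 with quantile normalization, 0 with a filter at a mean of 5 FPKM (4 genes tested), 0 with no moderation across genes and 0 with limma-voom. Against 5 called in Fat1-TAC under WT-TAC, the counts were 2, 2, 1 and 0 for the first 4 of these settings, 0 with only the 2 groups compared and 4 with limma-voom. Leaving out a library gave 0 to 9 for the first, 0 to 9 for the second and 0 to 8 for the interaction, and scaling to cardiomyocyte markers gave 1 for the interaction. With the filter reapplied, only Krt8, Krt18 and Krt19 were tested without a WT-TAC library. On unchanged genes the counts were 7, 7 and 5 without WT-TAC1 and 9, 9 and 8 without WT-TAC2. Over all genes, 133 called up became 0 to 286 and 201 called down 4 to 507 across these settings, apart from the 6155 to 6497 and 6444 to 6763 without WT-TAC2, where a lone library was taken to vary like the other groups. The mean basal share of 25.3% in WT-TAC became 15.3% without Krt15, 32.0% without Krt19 and 14.3% from medians. Without Krt19, Fat1-TAC1 had a share of 23.9%, beside 28.9% in WT-TAC1 and 35.2% in WT-TAC2. No fold change of a member in the comparisons with WT-TAC or in the interaction changed sign in any setting, though calls were lost 29 and 32 times and gained 13, 9 and 18 times. The cause of these shifts was not tested. Single fold changes in the other 2 comparisons were not recomputed. With 2 libraries a group, the replicate numbers gave correlations of deviations between -0.14 and 0.02, so they share only a number, and with the replicate block 3 and 4 were called. Depth limits Cdh1, Epcam, Krt5 and Krt15 outside WT-TAC, where counts of 0 to 4 fragments, apart from 11 of Cdh1 in Fat1-Sham1, cannot order the groups.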

Other observations

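Among the other keratins found, the order of the 2 WT-TAC libraries varied within each type. Of the type II keratins, Krt7 was higher in WT-TAC1 (16.4 and 8.73 FPKM) and Krt80 in WT-TAC2 (2.36 and 3.83 FPKM). Of the type I keratins, Krt10 was at 3.84 and 2.44 FPKM and Krt23 at 0.677 and 1.99 FPKM. Lama3, an epithelial laminin chain, was at 3.18 FPKM in WT-TAC1 and 0.712 FPKM in WT-TAC2, beside 0.489 to 0.698 FPKM in the other libraries. It was named after its values were seen.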
